A study of Mus musculus with 6 samples.

Results

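The mitosis and G2/M genes are 35 genes that act between the end of DNA replication and the division of the cell, picked by symbol from the 55487 genes of the count table. All 35 were listed, and all 35 were expressed enough to be among the 13821 genes tested. RNA was sequenced from primitive macrophages, the first macrophages of the embryo and the precursors of microglia, grown from mouse embryonic stem cells. There were 3 libraries from Ts1Cje stem cells and 3 from wild-type stem cells. Ts1Cje models Down syndrome in the mouse: its cells hold the distal part of chromosome 16 in an additional copy, and none of the 35 genes lies on that chromosome. Stem cells of both genotypes were treated alike for 12 days with M-CSF, IL-3, SCF, VEGF, activin A, BMP-4 and FGF2, and the question named in the design text is the low number of microglia in Ts1Cje embryos. The labels number the samples of each genotype as lots 1 to 3, here called replicates. They do not say whether lots are separate stem cell lines, separate embryos or separate cultures, and strain and embryonic age are not given there either. As a consequence, p-values reflect the spread among these 6 libraries alone, and that spread may be technical.

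A cell enters mitosis when Cdk1, bound to cyclin A or cyclin B, is switched on. Polo and Aurora kinases then build the spindle, checkpoint kinases hold the chromosomes until each is attached at its centromere, and the anaphase-promoting complex marks cyclin B for destruction so that the cell can divide. The RNAs of these proteins are made mainly in G2 and mitosis, under the MuvB complex with the transcription factors B-Myb and FoxM1. They are kept low in resting cells by the same MuvB core joined to a pocket protein and an E2F, the DREAM complex. In the embryo, primitive macrophages and young microglia multiply by division in the tissue.

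Total counts were 26146044 to 32658148 in the Ts1Cje libraries and 25484294 to 26372632 in the wild-type libraries, with 17586 to 18935 genes detected per library. Of the 6 libraries, wild-type replicate 1 lay far from the rest on the first principal component (37.8% of the variance). Scores there were -36.7 to -11.3 in Ts1Cje libraries, against 88.2, 18.7 and -38.7 in wild-type replicates 1 to 3. The macrophage RNAs Csf1r and Spi1 were abundant in all cultures. Csf1r, which encodes the M-CSF receptor, had 1088, 1136 and 1119 CPM (counts scaled to the library total and a TMM factor) in Ts1Cje replicates 1 to 3, against 2435, 1528 and 1066 CPM in wild-type replicates 1 to 3. Spi1, a transcription factor that macrophages require, had 231, 229 and 229 CPM in Ts1Cje libraries, against 203, 167 and 242 CPM in wild-type libraries. Not all of the 10 macrophage markers listed were as abundant: the lowest was at 4.54 CPM in Ts1Cje replicate 3 and 6.05 CPM in wild-type replicate 3. Markers of pluripotent cells and neutrophils were low. The summed level of 7 pluripotency genes was 0.447 to 0.750 CPM in Ts1Cje and 0 to 0.150 CPM in wild-type libraries, with Sox2 and Esrrb at 0 in all 6. That of 8 neutrophil genes was under 1 CPM in every library, with Ly6g at 0. Sums were higher for some other cell types, up to 186 CPM for megakaryocyte and mast cell genes in wild-type replicate 2.

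Levels of the mitosis and G2/M genes did not separate the genotypes. None of the 35 was called between Ts1Cje and wild-type macrophages, and for all 35 the 3 Ts1Cje libraries overlapped the 3 wild-type libraries. What varied was the level within a genotype: wild-type replicate 1 held 34 of the 35 RNAs at the lowest level of all 6 libraries, in most cases far below the other wild-type libraries. Summed over the 35 genes, the level was 2227, 1739 and 1209 CPM in Ts1Cje replicates 1 to 3, against 391.7, 1981 and 2060 CPM in wild-type replicates 1 to 3. Ts1Cje replicate 3 was the lowest of its genotype and wild-type replicate 1 lay below all other libraries, while wild-type replicates 2 and 3 fell within the range of the Ts1Cje libraries. In bulk RNA, fewer dividing cells and less of these RNAs per cell cannot be told apart.

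By edgeR's quasi-likelihood test with Benjamini-Hochberg adjustment over 13821 genes, 0 of the 35 had an adjusted p under 0.05, where 0.00724% of all tested genes did. At an unadjusted p under 0.05 the count was again 0 of 35, against 5.79% of all tested genes. DESeq2 called 0 of 35, against 0.406% of all tested genes. Groups did not overlap for 0 of 35 genes, against 12.1% of all tested genes, of which 6.38% were higher and 5.72% lower in Ts1Cje. The smallest adjusted p among the 35 was 0.792, for Cenpa. The log2 fold change (Ts1Cje over wild-type) was positive for 32 of 35 genes, where 49.2% of all tested genes were positive. Its median was 0.24, against -0.01 over all tested genes, and its range was -0.43 for Cenpa to 0.71 for Bub1. Standard errors were 0.24 to 0.88 with a median of 0.66, against a median of 0.28 over all tested genes. Changes were simulated in counts drawn from each gene's mean level and fitted spread, without the low level shared by members in wild-type replicate 1. There edgeR found 1 of 83 genes set to 1.5-fold, 4 of 55 set to 2-fold and 39 of 62 set to 4-fold. Those genes were drawn from all tested genes, whose median standard error was smaller than that of the 35. Members that did not pass may therefore still differ.

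The sign of the fold changes rested on wild-type replicate 1. Without it, 31 of 35 genes had a negative log2 fold change, where 50.3% of all tested genes did, and the median was -0.26. The 4 genes that kept a positive value were Ccnf, Aurka, Bub1 and Cdca3. Again 0 of 35 were called by edgeR's adjusted p, against 0.00695% of all tested genes. Cenpf and Aspm had an unadjusted p under 0.05, 2 of 35 genes, against 4.78% of all tested genes. Leaving out Ts1Cje replicate 1, which had the highest levels of its genotype for 32 genes, gave 16 positive genes of 35 and a median of -0.01. Without each of the other 4 libraries in turn, the positive count was 29 to 34 and the median 0.25 to 0.56.

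**Figure D1:**
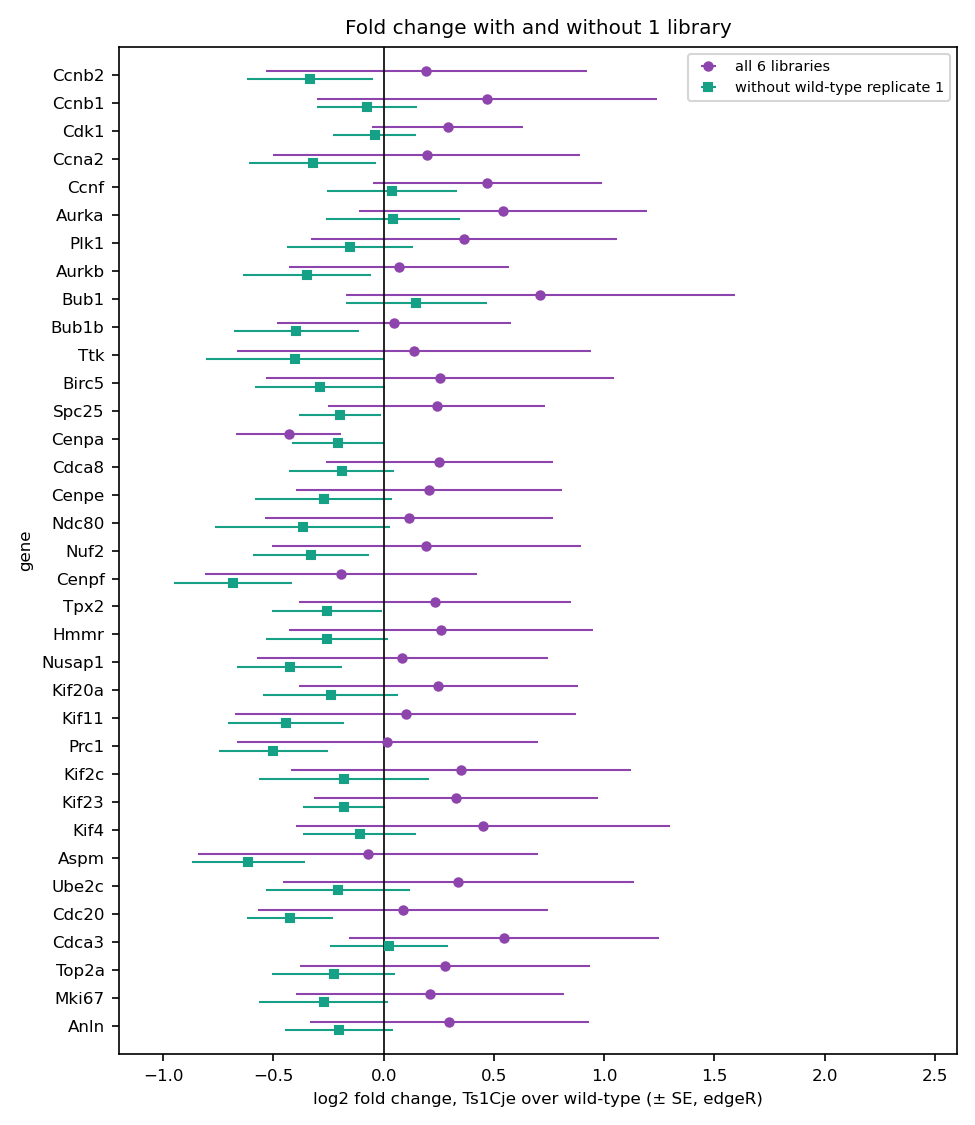
Log2 fold change of each of the 35 genes, Ts1Cje over wild-type, with its standard error from edgeR, from all 6 libraries (circles) and without wild-type replicate 1 (squares). Circles lie right of 0 for 32 genes and squares lie left of 0 for 31 genes.

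The spread within wild-type was wide even against the other genes of the same libraries. The median distance between the highest and the lowest wild-type library was 3.13 on the log2 CPM scale for the 35 genes, a fold of 8.78, against 0.67 for all tested genes. Of all tested genes, 4.68% had a wild-type range above that median. Among the Ts1Cje libraries the median distance was 0.91, a fold of 1.88, against 0.485 for all tested genes, and 25.8% of all tested genes lay above the members' median. The 35 genes also kept much the same order of libraries. Ts1Cje replicate 1 was above replicate 2 and replicate 2 above replicate 3 for 31 of 35 genes, an order that 20.1% of all tested genes had. Wild-type replicate 1 was below all 3 Ts1Cje libraries for 34 of 35 genes, which held for 34.5% of all tested genes. Wild-type replicate 2 was above wild-type replicate 3 for 18 of 35 genes, so those libraries had no common order.

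**Figure D2:**
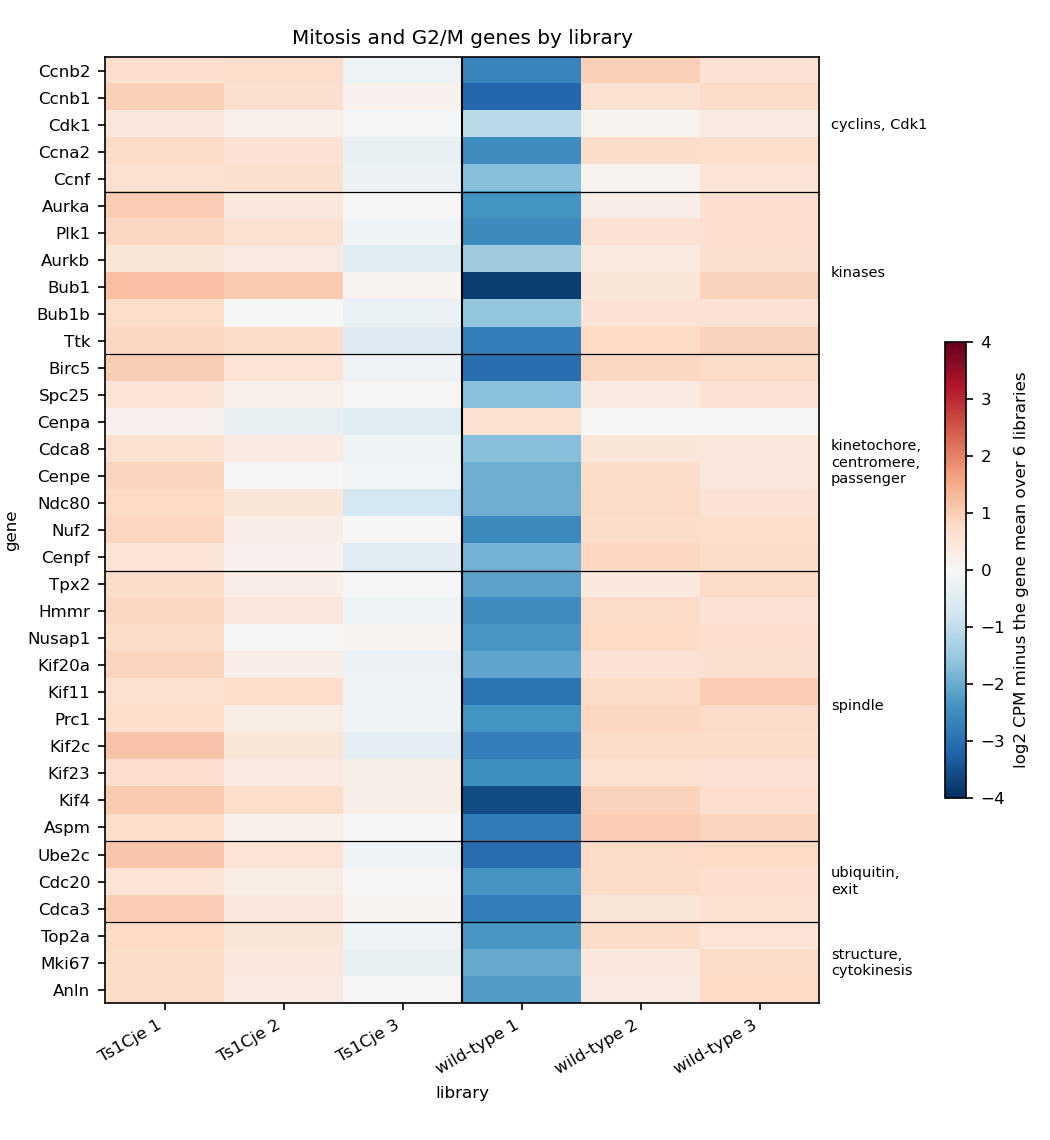
Level of the 35 genes in each library, as log2 CPM minus the gene's mean over the 6 libraries, with Ts1Cje libraries left of the line and genes grouped by role. The column of wild-type replicate 1 is low for 34 genes and high for Cenpa, and Ts1Cje replicate 3 is the lowest of its genotype for 34 genes.

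**Figure D3:**
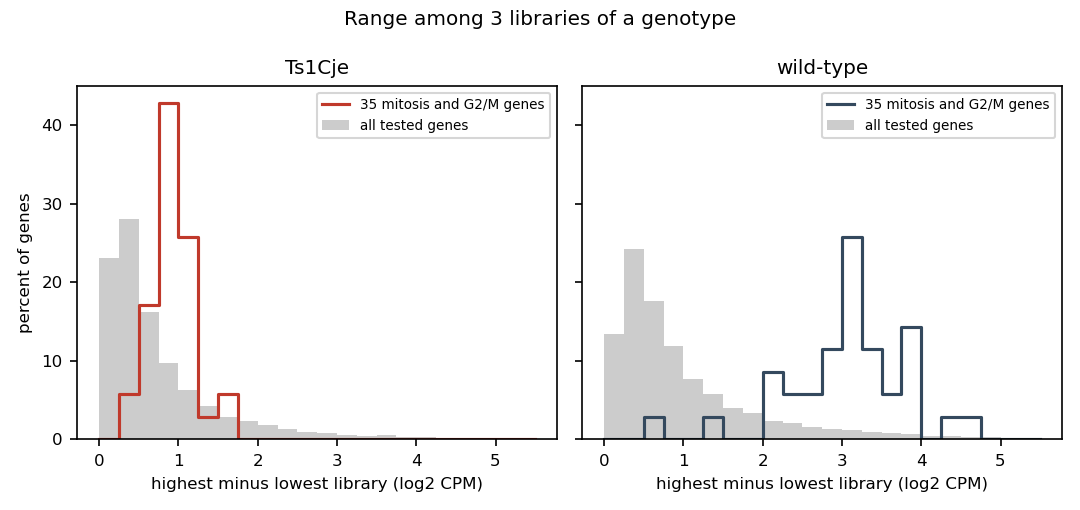
Distance between the highest and the lowest of the 3 libraries of a genotype, in log2 CPM, as the percent of all 13821 tested genes (grey bars) and of the 35 genes (line), shown up to 5.5. The 35 genes have a median of 0.91 in Ts1Cje and 3.13 in wild-type, against 0.485 and 0.67 for all tested genes.

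None of the 5 genes of cyclins and their kinase was called. On the TPM scale, which allows for gene length, Ccnb2 had the highest mean level of all 35 at 105.5 TPM over the 6 libraries, followed by Ccnb1 at 66.0 TPM. Ccnb2, a B-type cyclin, had 66.5, 68.0 and 36.5 CPM in Ts1Cje replicates 1 to 3, against 6.64, 80.7 and 62.4 CPM in wild-type replicates 1 to 3. Wild-type replicate 2 was the highest library and wild-type replicate 1 the lowest, and the groups overlapped. The Ccnb2 log2 fold change was 0.19 ± 0.73 (SE), and -0.34 without wild-type replicate 1. Ccnb1, cyclin B1, the partner of Cdk1 at entry into mitosis, had 134, 108 and 79.2 CPM in Ts1Cje libraries, against 7.85, 105 and 119 CPM in wild-type libraries. Cyclin B1 averaged 107 ± 27.5 CPM in Ts1Cje and 77.4 ± 60.6 CPM in wild-type libraries (SD, n = 3 each), a difference smaller than the wild-type SD and slightly larger than the Ts1Cje SD. Its level in wild-type replicate 1 was 6.997% of the mean of the other wild-type libraries. Cdk1 itself, whose protein is present through more of the cell cycle than its cyclins, had 108, 90.9 and 75.8 CPM in Ts1Cje libraries, against 37.6, 86.9 and 100.4 CPM in wild-type libraries. Its level in wild-type replicate 1 was 40.2% of the mean of the other wild-type libraries, the mildest drop among the 34 genes that were lowest there.

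Ccnf encodes cyclin F, which forms part of a ubiquitin ligase and does not bind Cdk1. It had 41.9, 43.0 and 23.3 CPM in Ts1Cje libraries, against 8.25, 30.1 and 39.8 CPM in wild-type libraries. The highest levels were in Ts1Cje replicates 1 and 2, but wild-type replicates 2 and 3 both lay above Ts1Cje replicate 3. For Ccnf the log2 fold change was 0.47 ± 0.52 (SE; edgeR adjusted p, 0.869), and 0.04 without wild-type replicate 1. Ccna2 encodes cyclin A2, which acts in both S phase and G2. It had 81.3, 71.5 and 39.7 CPM in Ts1Cje libraries, against 8.62, 80.5 and 79.0 CPM in wild-type libraries. As for cyclin B1, Ts1Cje replicate 1 was the highest library, wild-type replicate 1 the lowest and Ts1Cje replicate 3 the next lowest.

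**Figure D4:**
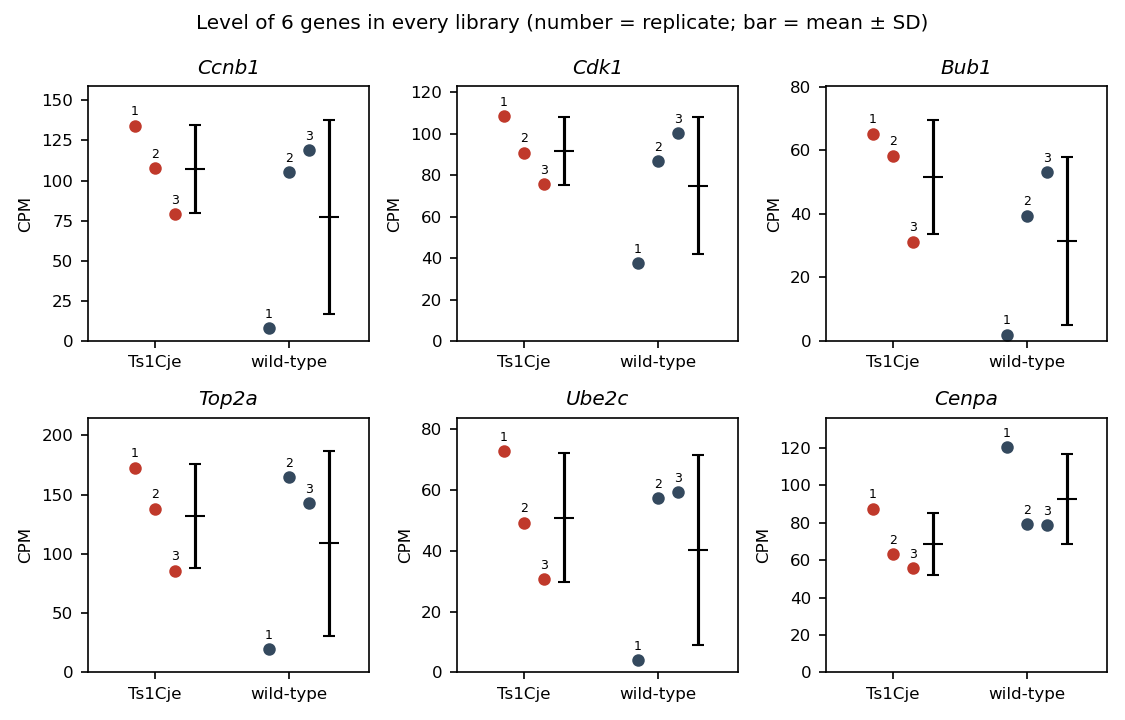
CPM of Ccnb1, Cdk1, Bub1, Top2a, Ube2c and Cenpa in every library (numbers are replicates), with the mean ± SD of each genotype (n = 3) beside the points. Wild-type replicate 1 lies far below the other points in the first 5 panels, at 1.98 CPM for Bub1, and above them for Cenpa, at 120.5 CPM.

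Genes of this phase are known for 2 short promoter elements. Whether these elements bear on the levels in the 6 libraries was not tested. The cell cycle genes homology region has the letters TTTGAA or TTTAAA and is bound by the MuvB complex, and CCAAT is bound by NF-Y. RefSeq promoter windows of build GRCm38.p6, from 250 bases before to 50 bases after the start of the gene, matched 31 of the 35 genes. The windows were searched on both strands, so that TTCAAA and ATTGG count as matches, and TTTAAA reads the same on both. TTTGAA or TTTAAA was in the window of 28 of 31 genes, 90.3%, against 27.6% of all 32851 windows. CCAAT was in that of 25 of 31 genes, 80.6%, against 37.4% of all windows. Both were in that of 24 of 31 genes, 77.4%, against 10.7% of all windows. Nuf2 and Nusap1 had neither, Bub1 had CCAAT alone, and Birc5, Anln, Kif2c and Ndc80 had no CCAAT. A match is a string of letters and not a shown binding site.

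The windows printed below are those of the 5 genes with the highest mean TPM whose window held both elements, and that of Cenpa, added after its values were seen because its levels differed in order from the other 34. Capitals mark the elements on either strand. In Ube2c, a CCAAT and an ATTGG overlap. The Ccnb2 window lies at chr9:70421505-70421804 on the minus strand, Ccnb1 at chr13:100786437-100786736 on the minus strand, Ube2c at chr2:164769679-164769978 on the plus strand, Cdk1 at chr10:69352863-69353162 on the minus strand, Spc25 at chr2:69206164-69206463 on the minus strand and Cenpa at chr5:30666636-30666935 on the plus strand.
Ccnb2: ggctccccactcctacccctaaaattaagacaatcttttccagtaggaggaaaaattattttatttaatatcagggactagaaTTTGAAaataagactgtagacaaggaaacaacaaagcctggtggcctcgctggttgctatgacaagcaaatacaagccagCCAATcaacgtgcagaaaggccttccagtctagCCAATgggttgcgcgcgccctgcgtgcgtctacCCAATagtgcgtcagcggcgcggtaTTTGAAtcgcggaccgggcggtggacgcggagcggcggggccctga
Ccnb1: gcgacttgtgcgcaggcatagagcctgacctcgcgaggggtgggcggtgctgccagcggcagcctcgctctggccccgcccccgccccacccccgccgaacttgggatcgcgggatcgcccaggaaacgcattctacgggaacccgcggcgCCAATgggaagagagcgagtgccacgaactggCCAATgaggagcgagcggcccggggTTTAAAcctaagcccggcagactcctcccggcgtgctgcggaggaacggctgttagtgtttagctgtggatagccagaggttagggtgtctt
Ube2c: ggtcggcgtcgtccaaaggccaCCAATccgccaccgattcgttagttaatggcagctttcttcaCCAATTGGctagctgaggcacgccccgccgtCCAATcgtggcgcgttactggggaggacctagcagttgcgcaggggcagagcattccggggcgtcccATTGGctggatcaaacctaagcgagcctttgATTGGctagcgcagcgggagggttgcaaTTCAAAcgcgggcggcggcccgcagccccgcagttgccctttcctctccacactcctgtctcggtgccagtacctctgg
Cdk1: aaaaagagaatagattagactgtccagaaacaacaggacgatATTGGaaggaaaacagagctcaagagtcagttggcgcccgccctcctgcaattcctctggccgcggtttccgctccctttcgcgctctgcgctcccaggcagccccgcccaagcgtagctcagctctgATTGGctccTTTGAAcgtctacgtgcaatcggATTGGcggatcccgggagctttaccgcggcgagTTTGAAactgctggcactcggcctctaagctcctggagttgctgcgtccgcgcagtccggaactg
Spc25: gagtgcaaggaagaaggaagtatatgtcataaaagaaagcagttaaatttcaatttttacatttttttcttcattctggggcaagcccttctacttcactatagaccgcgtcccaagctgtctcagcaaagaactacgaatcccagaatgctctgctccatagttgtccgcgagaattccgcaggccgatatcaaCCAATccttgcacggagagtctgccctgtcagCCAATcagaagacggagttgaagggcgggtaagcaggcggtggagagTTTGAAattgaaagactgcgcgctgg
Cenpa: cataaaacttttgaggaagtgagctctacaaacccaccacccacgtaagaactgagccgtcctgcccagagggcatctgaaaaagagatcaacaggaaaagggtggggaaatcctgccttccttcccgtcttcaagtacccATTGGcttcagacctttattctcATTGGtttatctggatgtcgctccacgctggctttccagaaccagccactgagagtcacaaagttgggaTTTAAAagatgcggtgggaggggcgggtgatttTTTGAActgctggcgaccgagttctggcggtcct
In Ccnb2 a TTTGAA began 4 bases after the start, with CCAAT at 21, 54 and 87 bases before it. In Ccnb1 the TTTAAA began 42 bases before the start and the CCAAT elements 67 and 99 bases before it. The distance between neighbouring CCAAT elements on a strand, first letter to first letter, was 33 and 33 in Ccnb2, 32 in Ccnb1 and Spc25, 128 and 32 in Cdk1 and 23 in Cenpa. In Ube2c it was 42 and 31 on the given strand and 95 and 31 on the opposite strand. The window of Cenpa held both kinds of element.

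None of the 6 mitotic and checkpoint kinases was called, and Bub1 among them had the largest range over the 6 libraries of all 35 genes. Bub1, a kinase that gathers checkpoint proteins at kinetochores, had 65.2, 58.3 and 31.2 CPM in Ts1Cje libraries, against 1.98, 39.3 and 53.1 CPM in wild-type libraries. The mean was 51.5 ± 17.97 CPM in Ts1Cje and 31.5 ± 26.5 CPM in wild-type libraries (SD, n = 3 each). Its level in wild-type replicate 1 was 4.29% of the mean of the other wild-type libraries. Bub1 had a log2 fold change of 0.71 ± 0.88 (SE), and 0.15 without wild-type replicate 1. Aurka, Aurora A, which matures the spindle poles, had 66.1, 43.9 and 32.6 CPM in Ts1Cje libraries, against 6.15, 39.4 and 52.3 CPM in wild-type libraries. Ts1Cje replicate 1 was the highest and wild-type replicate 1 the lowest, with the other 4 libraries between. Aurka had a log2 fold change of 0.54 ± 0.65 (SE; edgeR adjusted p, 0.882), and 0.04 without wild-type replicate 1.

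Plk1, the Polo kinase, had 41.7, 35.6 and 21.1 CPM in Ts1Cje libraries, against 3.92, 34.99 and 37.5 CPM in wild-type libraries. Aurkb, Aurora B, which corrects faulty attachments, had 39.0, 35.5 and 19.9 CPM in Ts1Cje libraries, against 10.3, 36.7 and 42.9 CPM in wild-type libraries. Bub1b, which encodes the checkpoint protein BubR1, had 56.3, 33.9 and 28.8 CPM in Ts1Cje libraries, against 11.5, 51.7 and 52.1 CPM in wild-type libraries. In these kinases wild-type replicate 1 was the lowest library and Ts1Cje replicate 3 the next, but the depth of the dip differed: Aurkb and Bub1b in wild-type replicate 1 were at 25.9% and 22.1% of the mean of the other wild-type libraries, and Plk1 at 10.8%. Ttk, the kinase Mps1 at the head of the checkpoint, was the least counted, with 24 counts in wild-type replicate 1 and an exact 95% Poisson interval of 15.4 to 35.7 counts that covers counting error only. It had 12.7, 11.8 and 4.88 CPM in Ts1Cje libraries, against 0.971, 12.3 and 13.3 CPM in wild-type libraries.

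Of the 8 kinetochore, centromere and passenger genes, 6 had a positive and 2 a negative log2 fold change, and none was called. Cenpa encodes the histone H3 variant that marks the centromere. It had 87.5, 63.3 and 55.8 CPM in Ts1Cje libraries, against 120.5, 79.3 and 78.7 CPM in wild-type libraries. Wild-type replicate 1 was here the highest of the 6 libraries, at 153% of the mean of the other wild-type libraries, while within Ts1Cje the order of replicates was the one that most of the 35 genes had. Ts1Cje replicate 1 lay above wild-type replicates 2 and 3, so the groups overlapped. Fitted over all 6 libraries, the log2 fold change of Cenpa was -0.43 ± 0.24 (SE), the lowest and the most precise of the 35, with an unadjusted p of 0.1095 and an adjusted p of 0.792 (edgeR), and it was -0.21 without wild-type replicate 1. Leaving out Ts1Cje replicate 1 gave -0.64, with an unadjusted p under 0.05.

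Birc5, survivin, the passenger protein that brings Aurora B to the centromere, had 97.5, 73.1 and 45.0 CPM in Ts1Cje libraries, against 6.15, 89.1 and 85.4 CPM in wild-type libraries. Ts1Cje replicate 1 was the highest, and wild-type replicate 1 stood at 7.05% of the mean of the other wild-type libraries. The Birc5 log2 fold change of 0.25 ± 0.79 (SE) was -0.29 without wild-type replicate 1 and -0.03 without Ts1Cje replicate 1. Cenpf, a large kinetochore protein of the outer plate, had 36.9, 28.7 and 19.2 CPM in Ts1Cje libraries, against 6.80, 46.3 and 44.0 CPM in wild-type libraries. Wild-type replicates 2 and 3 lay above all Ts1Cje libraries and wild-type replicate 1 below them. Its log2 fold change was -0.19 ± 0.62 (SE), and -0.68 without wild-type replicate 1, where its unadjusted p was under 0.05 and its adjusted p was 0.989 (edgeR). The direction for Cenpf was positive on the log2 TPM scale and without Ts1Cje replicate 3 or wild-type replicate 2 or 3, at 0.01 to 0.16.

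The remaining members of this group are parts or neighbours of the microtubule attachment. Ndc80, Nuf2 and Spc25 are subunits of the Ndc80 complex, which holds the end of the microtubule, Cenpe is a kinetochore motor, and Cdca8, borealin, is a passenger protein. Spc25 had 66.1, 54.0 and 48.2 CPM in Ts1Cje libraries, against 14.5, 58.4 and 69.6 CPM in wild-type libraries. Ndc80 had 39.2, 31.1 and 13.6 CPM in Ts1Cje libraries, against 5.75, 38.2 and 33.6 CPM in wild-type libraries. The subunits of the complex thus differed in the depth of the dip: Ts1Cje replicate 3 held 34.6% of the level of Ts1Cje replicate 1 for Ndc80 and 73.0% for Spc25.

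Of the 10 spindle motors and microtubule binders, 9 had a positive log2 fold change, none was called, and all 10 were negative without wild-type replicate 1. Tpx2, which activates Aurora A on the spindle, had 88.5, 63.3 and 51.2 CPM in Ts1Cje libraries, against 11.9, 70.3 and 90.6 CPM in wild-type libraries. Wild-type replicate 3 was the highest library by a small margin and wild-type replicate 1 the lowest. The Tpx2 log2 fold change of 0.23 ± 0.62 (SE) was -0.26 without wild-type replicate 1 and -0.01 without Ts1Cje replicate 1. Kif4, a kinesin of chromosome arms and the central spindle, had 31.3, 24.9 and 17.97 CPM in Ts1Cje libraries, against 1.21, 28.9 and 24.2 CPM in wild-type libraries. Its level in wild-type replicate 1 was 4.58% of the mean of the other wild-type libraries, with 30 counts and an exact 95% Poisson interval of 20.2 to 42.8 counts. For Kif4 the log2 fold change was 0.45 ± 0.85 (SE), and -0.11 without wild-type replicate 1.

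Aspm, a protein of the spindle poles, had the lowest mean level per length of the 35 at 3.79 TPM. It had 18.5, 13.0 and 11.2 CPM in Ts1Cje libraries, against 1.54, 22.5 and 20.7 CPM in wild-type libraries. As for Cenpf, wild-type replicates 2 and 3 lay above all Ts1Cje libraries and wild-type replicate 1 below them. Aspm had a log2 fold change of -0.07 ± 0.77 (SE), and of -0.61 without wild-type replicate 1 (unadjusted p under 0.05, edgeR adjusted p 0.989). Its direction was positive on the log2 TPM scale and without Ts1Cje replicate 3 or wild-type replicate 2 or 3, at 0.07 to 0.54. The other members of this group are the kinesins Kif2c, which takes microtubules apart, Kif11, which pushes the spindle poles apart, and Kif20a and Kif23, which act in the central spindle. With them are Prc1, which bundles the central spindle, and the microtubule binders Nusap1 and Hmmr. Kif11 had 59.7, 64.0 and 35.8 CPM in Ts1Cje libraries, against 5.14, 65.0 and 78.8 CPM in wild-type libraries. Prc1 had 71.1, 53.9 and 38.9 CPM in Ts1Cje libraries, against 8.34, 78.02 and 75.6 CPM in wild-type libraries. For both, wild-type replicates 2 and 3 were the highest libraries of the 6.

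Genes of ubiquitin transfer and mitotic exit gave the same picture, with 0 of 3 called. Ube2c, the enzyme that hands ubiquitin to the anaphase-promoting complex, had 72.7, 49.2 and 30.6 CPM in Ts1Cje libraries, against 4.09, 57.3 and 59.3 CPM in wild-type libraries. Ts1Cje replicate 1 was the highest library and wild-type replicate 1 the lowest. The Ube2c log2 fold change of 0.34 ± 0.80 (SE) was -0.21 without wild-type replicate 1 and -0.01 without Ts1Cje replicate 1. Cdca3, an adaptor that acts in the destruction of the mitosis inhibitor Wee1, had 56.6, 38.3 and 30.1 CPM in Ts1Cje libraries, against 4.13, 39.0 and 42.4 CPM in wild-type libraries. Its log2 fold change was 0.55 ± 0.70 (SE; edgeR adjusted p, 0.890), and 0.02 without wild-type replicate 1. Cdc20, the activator of the complex at anaphase, had 32.3, 27.4 and 22.8 CPM in Ts1Cje libraries, against 4.21, 38.0 and 35.5 CPM in wild-type libraries, with wild-type replicates 2 and 3 above all 3 Ts1Cje libraries.

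The 3 genes of chromosome structure and cytokinesis were not called either. Top2a, the topoisomerase that untangles sister chromatids, had 173, 138 and 85.8 CPM in Ts1Cje libraries, against 19.8, 164 and 143 CPM in wild-type libraries. Ts1Cje replicate 1 and wild-type replicate 2 were the highest libraries. For Top2a the log2 fold change was 0.28 ± 0.66 (SE), and -0.23 without wild-type replicate 1. Anln, anillin, a scaffold of the contractile ring, had 55.3, 41.9 and 34.2 CPM in Ts1Cje libraries, against 6.76, 42.2 and 57.9 CPM in wild-type libraries. Its log2 fold change was 0.30 ± 0.63 (SE), and -0.20 without wild-type replicate 1. Mki67, which coats mitotic chromosomes and encodes the proliferation marker Ki-67, had 111, 90.5 and 54.6 CPM in Ts1Cje libraries, against 16.5, 89.5 and 115 CPM in wild-type libraries, again with wild-type replicate 1 alone at a low level.

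Counting could blur some of these genes. The sources used here do not say whether counting went by strand, and 9 of the 35 genes share exon bases with a gene on the opposite strand. The shared part was 29.3% of the exon bases of Kif20a (with Cdc23), 22.8% of Ube2c (with Tnnc2, at 0 CPM), 15.1% of Kif4 (with Pdzd11), 12.5% of Ccna2 (with Exosc9) and 11.1% of Prc1 (with Rccd1), and less for the others. Ccnb1 has 4 pseudogenes with at least 95% identity over 300 bases or more, of which the most counted, Ccnb1-ps, averaged 1.23 CPM. Ndc80 has a similar pseudogene, 2700099C18Rik, which averaged 3.66 CPM. The sources used here do not say how reads that fit several genes were counted. The levels of the pseudogenes therefore do not bound the error in Ccnb1 and Ndc80.

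Other genes of the cell cycle were set beside the 35 to see how far the pattern of libraries reached. Of 67 other mitosis genes, such as condensin subunits, further kinesins and further centromere proteins, 50 had a positive log2 fold change, with a median of 0.21, and -0.20 without wild-type replicate 1. None was called by edgeR or DESeq2, and 1 had an unadjusted p under 0.05, against 5.79% of all tested genes. Wild-type replicate 1 was the lowest of the 6 libraries for 63 of the 67. It lay below all Ts1Cje libraries for 34.5% of all tested genes, so at most that share had their lowest level there. The same bound applies to the lists that follow. The gene with the unadjusted p under 0.05 was Psrc1, a microtubule binder of the spindle, with 8.49, 11.2 and 7.40 CPM in Ts1Cje libraries, against 25.5, 17.8 and 9.09 CPM in wild-type libraries. Psrc1 was highest in wild-type replicate 1, and its log2 fold change was -0.95 ± 0.38 (SE), with an unadjusted p of 0.0377 and an adjusted p of 0.792 (edgeR), and it was -0.58 without wild-type replicate 1. Ube2s, which extends ubiquitin chains for the anaphase-promoting complex, had 110.2, 90.0 and 102 CPM in Ts1Cje libraries, against 39.4, 83.6 and 94.5 CPM in wild-type libraries, a log2 fold change of 0.48 ± 0.30 (SE), and 0.17 without wild-type replicate 1. Ncapg2, a condensin II subunit, had 58.6, 52.2 and 46.5 CPM in Ts1Cje libraries, against 31.2, 44.1 and 52.5 CPM in wild-type libraries, a log2 fold change of 0.30 ± 0.21 (SE), and 0.11 without wild-type replicate 1. In both genes wild-type replicate 1 was the lowest library, with a milder dip than in the 35.

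Genes of the G1/S transition and of DNA replication had the lowest level in wild-type replicate 1 for 24 of 26 genes. Their median log2 fold change was 0.38, with 24 of 26 positive, and 0.01 without wild-type replicate 1, and none was called by edgeR or DESeq2. Of the 26, only Ccne1, cyclin E1, which drives entry into S phase, had an unadjusted p under 0.05, against 5.79% of all tested genes. It had 31.7, 21.9 and 17.5 CPM in Ts1Cje libraries, against 4.57, 5.68 and 15.8 CPM in wild-type libraries. Every Ts1Cje library exceeded every wild-type library. Its log2 fold change was 1.45 ± 0.49 (SE), and 1.13 without wild-type replicate 1, with an unadjusted p of 0.0189 and an adjusted p of 0.792 from all 6 libraries (edgeR). Ung, which removes uracil from DNA, also had groups that did not overlap, with 3.76, 4.13 and 3.31 CPM in Ts1Cje libraries, against 0.526, 1.61 and 3.16 CPM in wild-type libraries and a log2 fold change of 1.08 ± 0.61 (SE). Ccne1 and Ung were the 2 of 26 genes whose groups did not overlap, against 12.1% of all tested genes. Cdt1, a licensing factor of replication origins, had 38.8, 47.9 and 28.9 CPM in Ts1Cje libraries, against 19.6, 22.2 and 37.2 CPM in wild-type libraries, with overlapping groups and a log2 fold change of 0.55 ± 0.29 (SE).

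The transcription factors that act on mitosis genes were more varied. Foxm1, which is itself transcribed mainly in dividing cells, had 34.3, 30.8 and 21.7 CPM in Ts1Cje libraries, against 2.95, 28.0 and 37.5 CPM in wild-type libraries. Mybl2, which encodes B-Myb, had 12.0, 11.1 and 7.43 CPM in Ts1Cje libraries, against 1.90, 5.08 and 11.6 CPM in wild-type libraries. Both were lowest in wild-type replicate 1, like the 35 genes, and the log2 fold change was 0.34 ± 0.72 (SE) for Foxm1, and -0.19 without wild-type replicate 1, and 0.72 ± 0.58 (SE) for Mybl2, with 0.28 without wild-type replicate 1 and 1.54 without wild-type replicate 3. Over the list of 22 such genes, wild-type replicate 1 was the lowest library for 13, the median log2 fold change was 0.16, and -0.03 without wild-type replicate 1, and none was called by edgeR or DESeq2 or had an unadjusted p under 0.05. In 4 of the 22 genes the groups did not overlap, 2 of them higher and 2 lower in Ts1Cje, where 12.1% of all tested genes did not overlap. Lin9, a MuvB subunit, had 24.3, 25.7 and 20.2 CPM in Ts1Cje libraries, against 12.6, 16.8 and 20.0 CPM in wild-type libraries, and Lin52, another subunit, had 15.6, 15.8 and 20.5 CPM in Ts1Cje libraries, against 15.1, 13.0 and 9.39 CPM in wild-type libraries. Both were higher in all 3 Ts1Cje libraries than in any wild-type library, with log2 fold changes of 0.51 ± 0.22 and 0.47 ± 0.24 (SE) and an adjusted p of 0.792 each (edgeR). Nfya, a subunit of the CCAAT-binding NF-Y, lay lower in every Ts1Cje library than in any wild-type library, with 13.2, 12.4 and 10.7 CPM in Ts1Cje libraries, against 16.8, 15.2 and 17.1 CPM in wild-type libraries. For Nfya the log2 fold change was -0.43 ± 0.19 (SE; edgeR unadjusted p, 0.0519, and adjusted p, 0.792).

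The anaphase-promoting complex, whose core subunits are present through the cell cycle, had no low level as a list in wild-type replicate 1. Of its 16 genes, 4 were lowest in wild-type replicate 1, the median deviation of that library from the gene means was -0.00 on the log2 CPM scale, against -2.39 for the 35 genes, and the median log2 fold change was -0.00. None was called by edgeR or DESeq2, and none had an unadjusted p under 0.05. Anapc13, a small subunit, had 10.2, 12.1 and 12.1 CPM in Ts1Cje libraries, against 14.8, 17.2 and 13.7 CPM in wild-type libraries. All its Ts1Cje libraries lay below its wild-type libraries, with a log2 fold change of -0.41 ± 0.20 (SE) and an adjusted p of 0.792 (edgeR). Anapc13 was the only gene of the 16 whose groups did not overlap, where 12.1% of all tested genes did not. Cdc27, a core subunit, had 75.3, 70.7 and 63.7 CPM in Ts1Cje libraries, against 45.7, 55.1 and 71.3 CPM in wild-type libraries, a log2 fold change of 0.28 ± 0.19 (SE), and 0.14 without wild-type replicate 1. Fzr1, the activator Cdh1 of late mitosis and G1, had 41.7, 41.2 and 38.7 CPM in Ts1Cje libraries, against 40.9, 54.2 and 46.6 CPM in wild-type libraries, a log2 fold change of -0.22 ± 0.15 (SE). Groups overlapped for both.

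**Figure D5:**
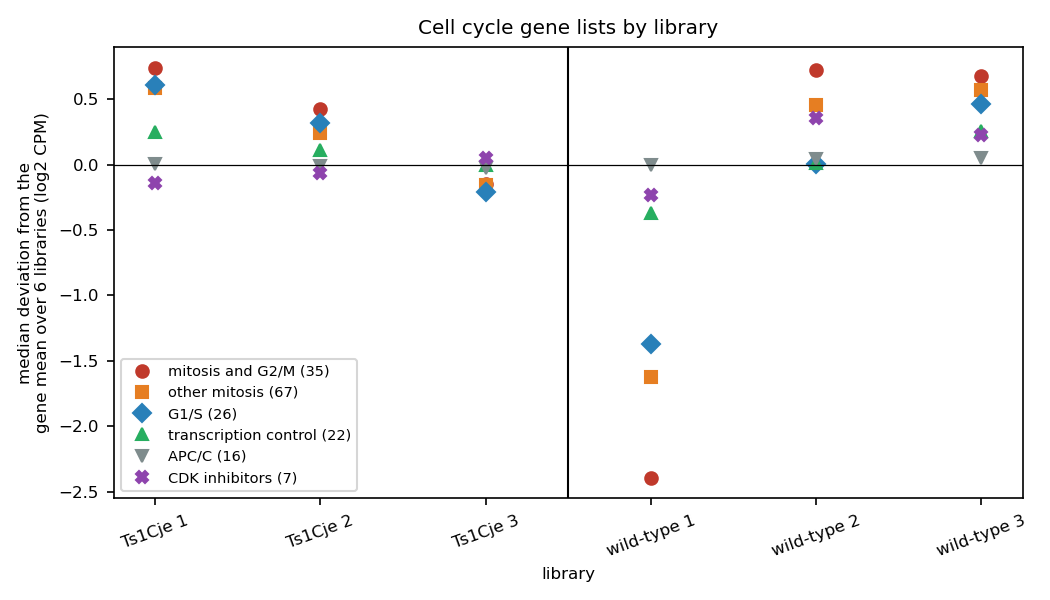
Median deviation of 6 gene lists in each library, as log2 CPM minus the gene's mean over the 6 libraries, with Ts1Cje libraries left of the line and the number of genes in brackets. In wild-type replicate 1 the 35 genes lie at -2.39, other mitosis genes at -1.63, G1/S genes at -1.37 and the anaphase-promoting complex (APC/C) at -0.00.

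Inhibitors of cyclin-dependent kinases, which hold cells out of the cycle, had no common order of libraries. Cdkn1a, which encodes p21, had 420.6, 445 and 492 CPM in Ts1Cje libraries, against 667, 446 and 363 CPM in wild-type libraries. It was highest in wild-type replicate 1 and, within Ts1Cje, highest in replicate 3, the libraries with the lowest levels of the 35 genes in each genotype. Cdkn1a had a log2 fold change of -0.12 ± 0.23 (SE), and of 0.15 without wild-type replicate 1. Cdkn1b, which encodes p27, had 2.54, 1.64 and 2.63 CPM in Ts1Cje libraries, against 4.94, 5.72 and 2.104 CPM in wild-type libraries, a log2 fold change of -0.90 ± 0.46 (SE). Cdkn1c, which encodes p57, had 52.8, 58.1 and 77.3 CPM in Ts1Cje libraries, against 18.2, 11.0 and 73.8 CPM in wild-type libraries, a log2 fold change of 0.87 ± 0.63 (SE), 0.44 without wild-type replicate 2 and 2.11 without wild-type replicate 3. Cdkn2b, which encodes p15, had 0.473, 1.19 and 0.886 CPM in Ts1Cje libraries, against 1.05, 2.92 and 2.29 CPM in wild-type libraries, a log2 fold change of -1.30 ± 0.60 (SE). Groups overlapped for all 4, and of the 7 inhibitors tested 3 had a positive log2 fold change, with a median of -0.12, and -0.33 without wild-type replicate 1. None of the 7 was called by edgeR or DESeq2, and none had an unadjusted p under 0.05.

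Levels of macrophage markers also varied among the 6 libraries. The summed level of 10 macrophage markers was 8990, 11335 and 17762 CPM in Ts1Cje replicates 1 to 3, against 17652, 10422 and 7733 CPM in wild-type replicates 1 to 3. It was highest in Ts1Cje replicate 3 and wild-type replicate 1. Lyz2, lysozyme, had the widest range in CPM of the 10, with 3249, 6139 and 11565 CPM in Ts1Cje libraries, against 10372, 4470 and 2298 CPM in wild-type libraries. Without Lyz2 the sum of the other 9 was 5742, 5196 and 6197 CPM in Ts1Cje libraries, against 7279, 5952 and 5435 CPM in wild-type libraries. The same libraries were then the highest of their genotype, by a much smaller margin. Some macrophage markers were not ordered in that way: Cx3cr1, a chemokine receptor of microglia, had 10.7, 33.9 and 4.54 CPM in Ts1Cje libraries, against 81.7, 28.5 and 6.05 CPM in wild-type libraries, and Itgam, an integrin chain, had 113, 64.7 and 58.4 CPM in Ts1Cje libraries, against 29.4, 82.3 and 52.3 CPM in wild-type libraries. The median deviation of the 10 from their gene means (log2 CPM) was -0.06, -0.02 and -0.01 in Ts1Cje replicates 1 to 3. In wild-type replicates 1 to 3 it was 0.52, 0.17 and -0.31. Ts1Cje replicate 3 thus stood out in the sum through Lyz2 and hardly in the median. None of the 10 macrophage markers was at 0 in any library.

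Summed markers of each other cell type were far below those of macrophages in every library, though Pf4 reached 185 CPM in wild-type replicate 2, above the macrophage marker Itgam there. The sum of 6 blood progenitor genes was 12.0 to 19.2 CPM in Ts1Cje and 5.94 to 15.1 CPM in wild-type libraries, and that of 8 erythroid genes was 1.40 to 3.37 CPM in Ts1Cje and 0.364 to 8.91 CPM in wild-type libraries. The sum of 8 megakaryocyte and mast cell genes was 44.0 to 145 CPM in Ts1Cje and 34.2 to 186 CPM in wild-type libraries, nearly all of it Pf4, with Gp1bb, Fcer1a and Mcpt8 at 0 in all libraries. The sum of 6 endothelial genes was 33.1 to 57.8 CPM in Ts1Cje and 13.7 to 54.2 CPM in wild-type libraries, mostly Kdr, with Emcn at 0 in all libraries. The sum of 6 mesenchymal genes, mostly collagens, was 11.0 to 74.9 CPM in Ts1Cje and 17.3 to 39.2 CPM in wild-type libraries. Of these lists, the erythroid, megakaryocyte and mast cell and endothelial sums had their lowest value in wild-type replicate 1, and the part of any of these cells in the levels of the 35 genes was not tested.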

How the data were processed

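RNA was sequenced from 6 libraries made with a SMART-seq HT Plus kit, 3 Ts1Cje and 3 wild-type. Trimmomatic 0.38, HISAT2 2.1.0, featureCounts 1.6.3 and FastQC 0.11.7 with build mm10 are named in the submitters' processing notes. The authors deposited raw counts per gene and TPM. The 35 genes had the same coordinates in GENCODE M21. Members, lists and tests were chosen with earlier results of these data known.

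Counts were tested with edgeR 4.0.16 (R 4.3.3): filterByExpr (minimum count 10, total 15), TMM factors, quasi-likelihood test, genotype as the only term, Benjamini-Hochberg over 13821 genes, threshold 0.05. The standard error is the fold change over the root of F, and log2 CPM used a prior count of 2. Alternatives were RLE factors, no filter, a stricter filter (50 counts in 3 libraries), DESeq2 1.42.0, limma 3.58.1 on log2(TPM + 1), with and without a TPM minimum of 1, and on log2(TPM + 0.1), a block by replicate number, and fits that each lacked 1 library.

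Values by library were given, by rule, for the gene of each role with the highest mean TPM and that with the smallest p, the genes with the largest and smallest range, the 3 genes of each other list with the smallest p, and Foxm1, Mybl2, Cdkn1a, Cdkn1b, Csf1r and Spi1. Other genes were chosen after their values were seen. Near-identical copies were searched with BLAST 2.17.0. The tests were tried on simulated data.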

Additional observations from a re-analysis of the deposited data

How the results depend on the processing

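None of the 35 genes was called under any alternative run. With single libraries left out, the 32 positive log2 fold changes became 4 to 34 and their median of 0.24 became -0.26 to 0.56, the low end of both without wild-type replicate 1. On log2(TPM + 1) the median was 0.59, on log2(TPM + 0.1) 0.68 and with the TPM minimum 0.59. Across all genes 1 was called, against 3 without a filter, 56 with DESeq2 (which made 46 false calls among 13621 genes left unchanged in simulated data, and edgeR 5), and 1 to 6 with a library left out, the highest without wild-type replicate 3. Low counts limit single libraries: Ttk in wild-type replicate 1 had 24 counts. The cause of the shifts given here was not tested.

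With 1 library left out, list medians were -0.20 to 0.50 for other mitosis genes, -0.031 to 0.31 for transcription control, -0.038 to -0.010 for the anaphase-promoting complex, 0.014 to 0.79 for G1/S genes and -0.33 to -0.07 for inhibitors. The median of the anaphase-promoting complex was 0.0032 without a filter, and that of the inhibitors 0.13 under the stricter filter. Log2 fold changes of named genes that turned in sign with a library left out were -0.20 to 0.84 for Anln, -0.61 to 0.34 for Aspm, -0.29 to 0.64 for Birc5, -0.34 to 0.71 for Ccnb2, -0.29 to 0.15 for Cdkn1a, -0.68 to 0.15 for Cenpf, -0.19 to 0.90 for Foxm1, -0.11 to 0.95 for Kif4, -0.23 to 0.69 for Top2a, -0.26 to 0.72 for Tpx2 and -0.21 to 0.73 for Ube2c. Aspm was at 0.22 on log2(TPM + 1), with or without the TPM minimum, and at 0.54 on log2(TPM + 0.1), and Cenpf at 0.061 and 0.16 on the same scales. Other named genes that kept their sign but moved by over 1.5 times were Aurka (0.04 to 1.06), Bub1 (0.15 to 1.32), Ccne1 (1.13 to 2.21), Ccnf (0.04 to 0.91), Cdc27 (0.14 to 0.48), Cdca3 (0.02 to 0.95), Cdkn1c (0.44 to 2.11), Cdt1 (0.36 to 0.89), Cenpa (-0.64 to -0.21), Csf1r (-0.83 to -0.23), Fzr1 (-0.32 to -0.12), Lin52 (0.30 to 0.62), Mybl2 (0.28 to 1.54), Ncapg2 (0.11 to 0.48), Psrc1 (-1.26 to -0.58), Spi1 (0.04 to 0.32), Ube2s (0.17 to 0.72) and Ung (0.64 to 1.80).

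Same-numbered replicates did not deviate together: r was -0.18, -0.05 and -0.06 for numbers 1, 2 and 3, and -0.11 to 0.17 for unlike numbers. Each r used deviations from the genotype mean, so the values depend on one another and cannot show whether lots were run together. The labels name no pairing, and the number was not taken to pair samples. With it as a replicate block, 0 genes were called over all genes and 0 of 35, with a median of 0.53 over the 35, 0.0017 over the anaphase-promoting complex, 0.36 for Aspm and 0.070 for Cenpf, and Cenpa had an unadjusted p under 0.05.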
